A study of Arabidopsis thaliana with 72 samples.

Results

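This comparison sets 3 root libraries of Arabidopsis thaliana seedlings harvested 12 h after citral against 3 root libraries harvested 12 h after ethanol, 6 of the 72 libraries of the series, and describes it across all genes. The seedlings were grown on agar for 14 days under 16 h of light and 8 h of dark and treated 7 h into the light. The treated group received citral at 202 µM and the control group 0.1% ethanol, per the series design. The labels do not state whether the citral group also received ethanol. No line or ecotype is named in the labels, and roots and shoots of whole treated seedlings were profiled separately. In the protocol text of these samples t-chalcone at 21 µM appears instead, while the agent labels, the design and the title name citral, and the agent labels were followed. The libraries were chosen by their organ, agent and time labels, with 3 libraries in each of the 24 groups. No label states whether the replicates are separate plates; the p-values then reflect only how far these libraries vary, possibly for technical reasons. Of the 22122 loci in the table, 20147 passed the filter on low values in roots and were tested.

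Citral is the mixture of the aldehydes geranial and neral that gives lemon grass its scent. Its carbonyl sits beside a carbon-carbon double bond, which makes it an electrophile that can react with thiols such as glutathione. Plant cells meet such compounds with reductases and aldo-keto reductases that remove the carbonyl or the double bond, with transferases that add glutathione or glucose, and with pumps that export the products. TGA transcription factors bind promoters of many of these genes at a short element with the core TGACG. Citral is also known to disturb plant microtubules, and the title of the series concerns single-stranded DNA-binding proteins.

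The ethanol libraries held 2.69, 20.6 and 19.5 M recovered reads and the citral libraries 1.98, 3.48 and 3.43 M, so the citral levels rest on fewer reads. Levels below are counts per M reads after scaling (CPM), for the 3 ethanol and then the 3 citral libraries in replicate order. A library at the floor of the table, which can stand for no read or for 1, is shown at the value of 0.5 read. Changes are log2 ratios of citral to ethanol with their SE (n = 3 libraries per group). Rises and falls are those with a Benjamini-Hochberg adjusted p under 0.05 in limma. Over 13274 well measured loci the root mean square log2 distance between libraries was 0.152 to 0.253 within ethanol, 0.263 to 0.288 within citral and 0.557 to 0.627 between the groups. The Casparian strip gene CASP1 stood at 134, 122 and 178 CPM in ethanol roots and 66.2, 55.0 and 74.5 in citral roots, and the root hair gene COBL9 at 25.2, 27.9 and 37.0 against 2.53, 5.08 and 3.48. Both root markers were present in all 6 libraries and lower in every citral library; in bulk roots, fewer cells of a type and less RNA per cell cannot be told apart. The 10 shoot markers summed to 319 to 359 CPM in ethanol roots and 435 to 602 in citral roots, against 44190.0 to 54290.0 in shoots at 12 h. Of these 10, 4 rose, 0 fell and 0 were at the floor in every library of either group. The 10 markers are RBCS, LHCB and LHCA genes and PSAD1, all of photosynthesis. Strand use in the counting is not given, and 6769 loci overlap another annotated gene, among them OPR1, CYP81D11, SERAT2;1, SERAT2;2, APS4, GPX6, CSD1, ADH1, NBR1, ARR8, CKX6, F6'H1, MYB10, EXPA18, TIP2;1, NRT1.5, TUB1, TUA2, CYCD1;1, CYCD3;1, CASP1, PER64, FAR4, FPS1, PAP17, FKF1, HSP70-3, ABF1, AT5G64910, CYP86A2, POT1A, WHY2 and RPA2A. Reads of such a gene and its partner cannot be told apart.

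Many clock genes stood at different levels in the 2 groups. Levels at 12 h alone do not give a clock phase, which was not tested. LHY, a transcription factor that peaks around dawn, was at 109.6, 108 and 109 CPM in ethanol roots and 7.08, 4.51 and 7.83 in citral roots, a log2 change of -4.098 ± 0.23 (adjusted p = 9.62e-18). CCA1, its close relative, was at 83.4, 81.5 and 72.4 against 20.2, 23.7 and 16.5 (-1.98 ± 0.15, adjusted p = 1.28e-13). The evening gene PRR5 was at 1.80, 2.93 and 2.82 CPM in ethanol and 30.3, 37.8 and 33.6 in citral (3.60 ± 0.21, adjusted p = 3.53e-17). ELF4, of the evening complex, was at 2.16, 3.16 and 3.48 against 27.8, 28.5 and 29.3 (3.17 ± 0.20). The libraries did not overlap for any of the 4 genes, as for 44.4% of all loci tested. These morning genes were high in ethanol and these evening genes high in citral. Of the 20147 loci tested, 18.2% rose and 17.9% fell, and of the morning clock list 11 of 13 fell and 1 rose (median -1.16), while of the evening list 10 of 16 rose and 2 fell (median 1.20).

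Set against the untreated roots of 0 h, the same citral libraries had 0 of 13 morning members rising and 1 falling (median -0.17), and 6 of 16 evening members rising and 2 falling (median 0.38). Over 29 clock genes the root mean square distance (log2) from the citral 12 h group was 1.74 to the ethanol 12 h group, 0.594 to untreated roots, 0.662 to ethanol roots at 3 h and 0.537 to citral roots at 24 h. Replicate 1 of ethanol roots at 3 h held 0.146 M reads, with 46.22% of loci at the floor, and entered the 0.662 unweighted. Ethanol roots at 12 and 24 h were 0.416 apart, although the labels put these harvests 12 h apart. In shoots the citral 12 h group was 1.72 from ethanol at 12 h and 0.648 from untreated shoots. Replicate 2 of the shoot ethanol group at 12 h held 0.335 M reads, with 73.9% of loci at the floor, and entered the 1.72 unweighted. Clock phase and citral therefore cannot be told apart in the 12 h comparison. Whether the time labels of the ethanol or citral libraries at 12 h are right was not tested, and every 12 h change below is read by those labels. Because of the clock genes the 12 h counts of each list below are followed by those of the same citral libraries against untreated roots. A named gene is followed by its change against untreated roots where its call or direction differed. That control was chosen after the data were seen and differs from the citral libraries in time and in treatment. In that comparison 32.1% of loci were called, 15.6% higher and 16.6% lower. CCA1 showed -0.20 there (adjusted p = 0.36).

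**Figure D1:**
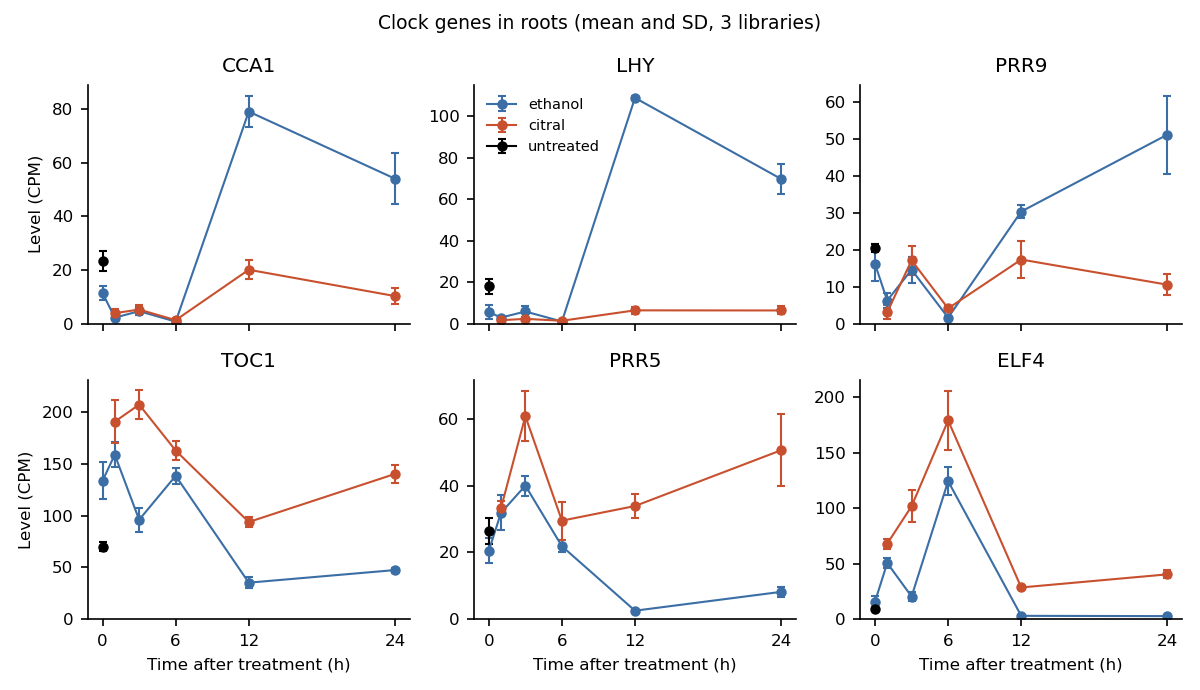
Mean level in CPM with SD (3 libraries each) of 6 clock genes in roots against hours after treatment, for ethanol, citral and untreated plants. At 12 h CCA1 and LHY are high in ethanol (79.1 and 109 CPM) and low in citral (20.1 and 6.47), and TOC1, PRR5 and ELF4 stand the other way round.

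Across the genome 3668 loci rose and 3605 fell in citral roots at 12 h, and the median change of all tested loci was 0.01. Changes of at least 2-fold were found for 913 rises and 1077 falls, and of at least 8-fold for 84 and 150. The 3 citral and 3 ethanol libraries did not overlap for 8945 loci (44.4% of those tested), including loci with no call. In 148 of the loci that fell, every citral library was at the floor of the table, where no read and 1 read look alike. The balance moved with the scaling, to 3022 rises and 4338 falls with the authors' own factors and to 3191 and 4058 with library totals alone. With untreated roots as control the same citral libraries gave 3136 rises and 3336 falls.

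**Figure D2:**
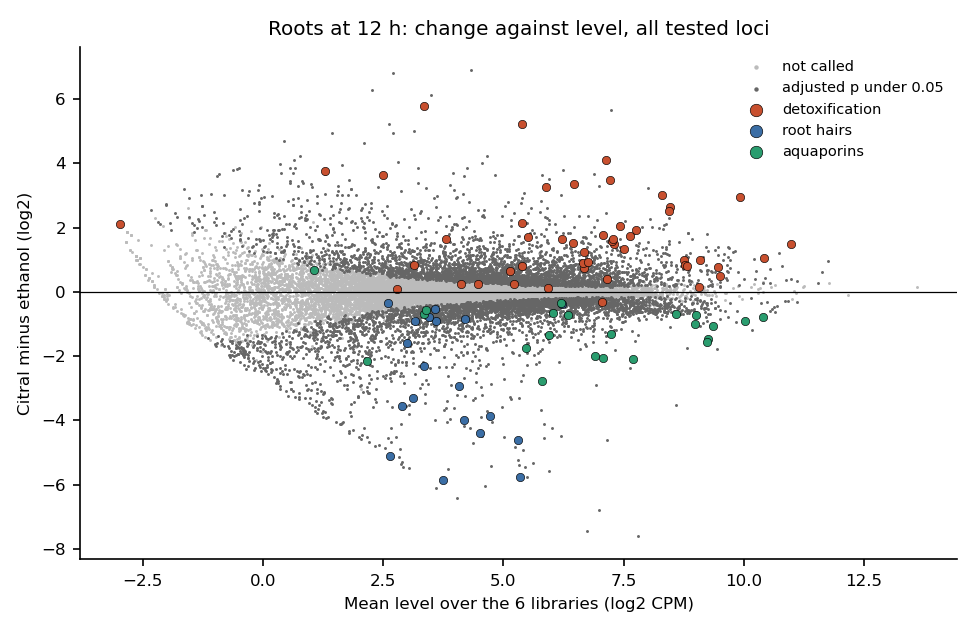
Change between citral and ethanol roots at 12 h (log2) against mean level over the 6 libraries (log2 CPM), 1 point per tested locus, with called loci in dark grey and members of the detoxification, root hair and aquaporin lists in colour. Detoxification members lie mostly above 0 (median 1.49), aquaporins below it (median -1.03), and root hair members furthest below (median -2.94).

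Genes of several kinds were among the 12 largest rises, including reductases, a glucosyltransferase and a transporter. AT5G16980, annotated as a zinc-binding dehydrogenase and a neighbour of the alkenal reductase gene AER, stood at 0.180, 0.233 and 0.554 CPM in ethanol roots and 38.4, 38.4 and 41.8 in citral roots (6.89 ± 0.43, adjusted p = 7.98e-16). DOGT1, a glucosyltransferase first known for inactivating a fungal toxin, was at 0.180, 0.233 and 0.453 against 22.8, 19.2 and 24.4 (6.12 ± 0.46, adjusted p = 1.69e-13). AKR4C9, an aldo-keto reductase of reactive carbonyls, was at 0.180, 0.372 and 0.252 against 24.3, 20.3 and 15.9 (5.79 ± 0.39). All 3 genes were near the detection floor in every ethanol library and well above it in every citral library, so their folds rest on a few ethanol reads. Against untreated roots they were higher by 5.39, 3.28 and 3.50 on the log2 scale.

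AT1G60750, another gene annotated as an oxidoreductase of the aldo-keto type, was at 3.59, 5.86 and 6.55 CPM against 253, 322 and 312 (5.65 ± 0.15, adjusted p = 8.86e-28). ABCG40, an ABC transporter of the plasma membrane, was at 1.44, 2.46 and 1.91 against 66.2, 79.3 and 101 (5.21 ± 0.34). AER itself, which reduces the double bond of such aldehydes, was at 20.1, 23.7 and 27.1 against 281, 252 and 282 (3.47 ± 0.10). AT1G60750 and AER were clearly expressed in both groups. ABCG40 was low in ethanol, at 1.44 CPM in replicate 1, where 3 reads are 1.078 CPM. None of these 3 genes overlapped between groups, as for 44.4% of all loci tested. Against untreated roots AT1G60750, ABCG40 and AER were higher by 5.29, 4.85 and 3.10. AT5G16980 (chr5:5578846-5581311) and AER (chr5:5575973-5578086) are tandem copies on the minus strand of the TAIR10.1 annotation, so reads that match both could be split between them.

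Other rises in this group of the largest included AT5G58840, a subtilase, with 0.180, 0.511 and 0.252 CPM against 11.6, 11.3 and 15.4 (4.93 ± 0.46), and AT4G12290, a copper amine oxidase, with 1.44, 0.511 and 0.352 against 13.7, 19.5 and 17.1 (5.02 ± 0.36). The kinase gene AT5G64910 and the beta-glucosidase BGLU28 held 2 reads each above the floor in the 3 ethanol libraries together. Their other ethanol libraries were at the floor, which can hide 1 read each. The citral levels of these genes were 286-fold (95% interval of the counts 79.2 to 2362) and 209.9-fold (58.1 to 1733) higher, by counting error only. These folds count the floor libraries as holding no read, and a read there would lower them. AT5G09570, a small CHCH protein of mitochondria, was at 0.180, 0.465 and 0.151 CPM in ethanol against 5.56, 10.4 and 8.99 (4.62 ± 0.54). It stood at nearly the same level in untreated roots, with a change of 0.17 against them (adjusted p = 0.72).

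**Figure D3:**
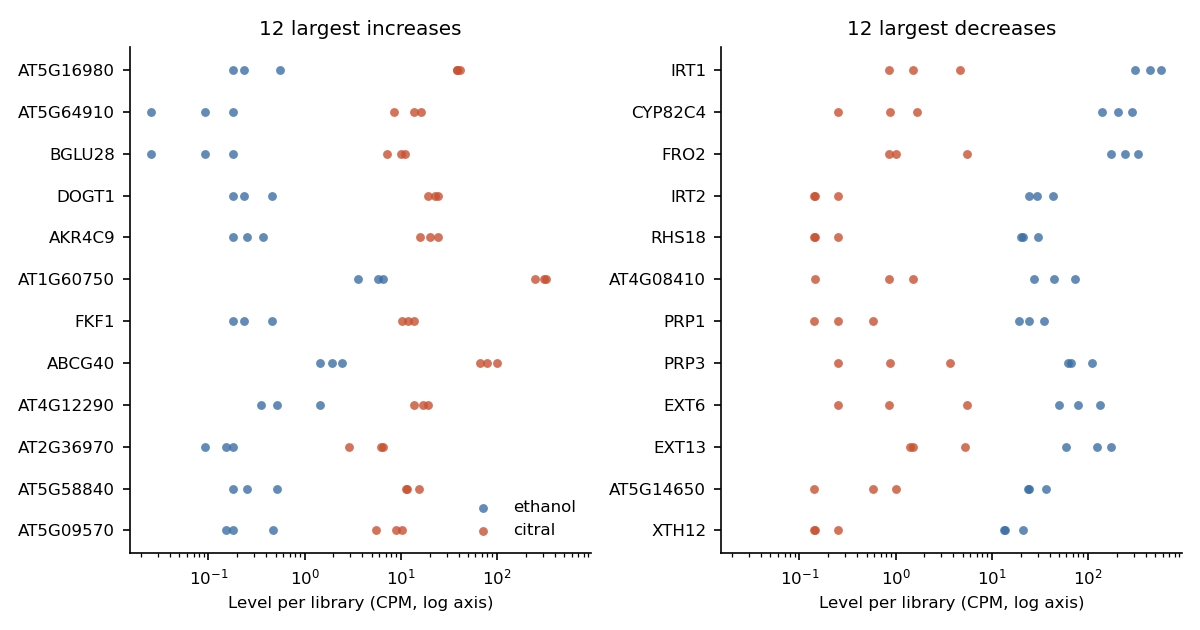
Level per library (CPM, log axis) of the 12 largest rises and the 12 largest falls in citral roots at 12 h, ethanol in blue and citral in red, 3 points each. The 2 groups do not overlap for any of the 24 genes, which the rule for choosing them required.

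Of the detoxification list as a whole 40 of 49 tested members rose and 1 fell, with a median of 1.49. OPR1, an oxophytodienoate reductase homologue that acts on reactive carbonyls, was at 227, 219 and 219.8 CPM against 1724, 1707 and 1724 (2.96 ± 0.07, adjusted p = 3.75e-29). CYP81D11, a cytochrome P450 of the xenobiotic response, was at 72.6, 69.0 and 68.7 against 533, 524 and 628 (3.01 ± 0.08). Every citral library stood far above every ethanol library for both, where 44.4% of all loci tested showed no overlap. NQR, a quinone reductase, was the member that fell, from 145, 140.1 and 155 to 121, 112 and 116 (-0.32 ± 0.07, adjusted p = 7.27e-04). Against untreated roots 43 of the 49 rose and 2 fell (median 1.37).

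The following promoters are shown because TGACG was frequent among the largest rises, and FKF1 because it is the clock gene among them. All those shown hold TGACG. Among the 12 largest rises AT5G16980, the largest of all, AT5G58840, AT2G36970 and BGLU28 held none in the same window. Each is the 300 bases before the annotated gene start in TAIR10.1, 5′ to 3′ on the gene's strand, with capitals at TGACG or its reverse CGTCA and, for FKF1, at the reverse of the evening element AAAATATCT. AKR4C9 (chr2:15834466-15834765, plus strand) holds TGACG once, 39 bases before the start. AT1G60750 (chr1:22363855-22364154, minus strand) holds it at 283 and 277 bases before the start. FKF1 (chr1:25508339-25508638, plus strand), a blue-light receptor of the evening that rose from 0.180, 0.233 and 0.453 CPM to 13.7, 10.4 and 11.9, holds it at 218, 160 and 25 bases, and the evening element at 186.
AKR4C9: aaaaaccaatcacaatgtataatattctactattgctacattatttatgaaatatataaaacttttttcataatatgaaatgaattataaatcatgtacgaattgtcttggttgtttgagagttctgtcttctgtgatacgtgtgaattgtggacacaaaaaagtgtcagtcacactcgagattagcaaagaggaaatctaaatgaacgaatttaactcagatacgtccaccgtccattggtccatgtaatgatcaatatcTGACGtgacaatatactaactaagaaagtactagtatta
AT1G60750: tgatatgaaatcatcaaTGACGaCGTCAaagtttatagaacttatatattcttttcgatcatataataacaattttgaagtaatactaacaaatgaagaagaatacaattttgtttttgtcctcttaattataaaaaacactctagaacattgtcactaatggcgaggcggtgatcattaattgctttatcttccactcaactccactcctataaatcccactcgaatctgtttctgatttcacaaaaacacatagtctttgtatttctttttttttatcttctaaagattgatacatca
FKF1: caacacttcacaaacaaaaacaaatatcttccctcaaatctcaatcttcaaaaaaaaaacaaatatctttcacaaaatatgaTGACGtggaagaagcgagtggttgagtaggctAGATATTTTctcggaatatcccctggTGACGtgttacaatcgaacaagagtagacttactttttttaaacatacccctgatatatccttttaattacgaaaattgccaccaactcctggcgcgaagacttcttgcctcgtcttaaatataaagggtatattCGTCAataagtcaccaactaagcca

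TGACG, on either strand, occurred in 39 of the 100 promoters of the loci with the largest rises, in 17 of the 100 with the largest falls and in 22.1% of the 20028 promoters read. The evening element AAAATATCT occurred in 9, in 1 and in 2.92%. The G-box CACGTG occurred in 11, in 6 and in 7.88%. The heat shock core GAANNTTC was in 12, in 9 and in 11.4%, and the site II motif ATGGGCC in 5, in 3 and in 9.19%. A match shows only that the letters occur in the window.

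Genes that supply sulfur and glutathione were mostly higher. In this list (sulfate assimilation and glutathione) 15 of 20 members rose and 1 fell (median 0.54). GSH1, which makes the first bond of glutathione, was at 327, 372 and 364 CPM against 836, 717 and 772 (1.098 ± 0.06, adjusted p = 2.44e-17). SERAT2;1 and SERAT2;2, serine acetyltransferases that feed cysteine synthesis, rose by 1.43 ± 0.08 and 1.19 ± 0.07. APS4, an ATP sulfurylase, fell from 371, 329.9 and 352 to 248, 236 and 275 (-0.44 ± 0.09). With untreated roots as the control 14 rose and 1 fell, and the changes of these 4 genes were 1.05, 1.06, 1.29 and -0.45.

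Of the genes induced by sulfur limitation 11 of 15 rose and 1 fell (median 1.04). SULTR2;1, a sulfate transporter of the vasculature, was at 21.9, 26.2 and 24.3 CPM against 143, 125 and 122 (2.35 ± 0.12, adjusted p = 1.39e-17). LSU1, a marker of low sulfur, was at 6.47, 5.67 and 7.05 against 27.3, 23.4 and 21.5 (1.95 ± 0.18). The uptake transporter SULTR1;1 went the other way, with 3.59, 4.14 and 6.40 CPM in ethanol and 2 reads above the floor in the 3 citral libraries together. By counts this was 21.1-fold fewer (interval 5.85 to 174), with libraries at the floor counted as holding no read. With that control replaced by untreated roots the list was mixed, with 7 rises, 3 falls and a median of 0.14.

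Redox enzymes were divided. Of the oxidative stress list 10 of 25 rose and 4 fell (median 0.27). GPX6, a glutathione peroxidase-like enzyme, was at 185, 207 and 199.7 CPM against 717, 716 and 715 (1.83 ± 0.06, adjusted p = 5.75e-24). CAT1, a catalase, was at 19.1, 21.7 and 20.1 against 70.8, 72.5 and 79.2 (1.83 ± 0.10), and DHAR2, a dehydroascorbate reductase, rose by 1.58 ± 0.10. The copper/zinc superoxide dismutases fell in every citral library, CSD1 from 177, 159 and 143 to 74.3, 81.0 and 76.3 (-1.02 ± 0.12) and CSD2 from 103, 94.2 and 89.8 to 45.0, 39.5 and 37.7 (-1.24 ± 0.11). Against untreated roots 9 members rose and 5 fell.

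Of the mitochondrial retrograde genes, which report impaired respiration, 8 of 13 rose and 0 fell (median 0.99). AOX1A, the alternative oxidase, was at 42.0, 49.9 and 44.6 CPM against 123, 126 and 118 (1.37 ± 0.10, adjusted p = 1.12e-14). UPOX was at 2.88, 2.28 and 1.46 against 13.7, 22.0 and 20.9 (3.23 ± 0.30). Against untreated roots their changes were 0.45 and 0.61, and 6 of the 13 rose with a median of 0.16.

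Genes of ethanol fermentation rose. PDC2, a pyruvate decarboxylase, was at 11.1, 9.997 and 10.5 CPM against 137, 141 and 144 (3.78 ± 0.11, adjusted p = 9.65e-27). PDC1 was at 17.2, 13.0 and 13.8 against 97.6, 95.3 and 92.8 (2.81 ± 0.16), and ADH1, alcohol dehydrogenase, at 16.2, 13.5 and 14.7 against 43.5, 48.2 and 49.9 (1.77 ± 0.22). No citral library overlapped an ethanol library for any of the 3, as for 44.4% of all loci tested. Against untreated roots they were higher by 1.42, 1.00 and 1.01. Of the hypoxia list 9 of 19 rose and 0 fell (median 0.38), and against untreated roots 5 rose and 3 fell.

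Of the heat shock and protein folding list 4 of 24 rose and 2 fell at 12 h (median 0.20), shares near those of all loci or below them. After 1 h of citral 23 had risen (median 3.56), when 22.8% of all loci rose, and after 6 h 18 had (median 1.23), when 22.4% did. Against untreated roots 2 rose and 5 fell, with a median of -0.46, of the other sign. ROF2, a heat-induced peptidyl-prolyl isomerase, was at 16.9, 11.4 and 13.4 CPM against 23.2, 30.2 and 23.2 (1.07 ± 0.19). HSP70-3, a cytosolic chaperone, was lower, 319.5, 306 and 318 against 203, 218 and 198 (-0.60 ± 0.17, adjusted p = 5.99e-03). Proteasome genes had 9 of 26 rising and 3 falling, and NAC53, a transcription factor of the proteasome stress response counted in that list, was at 73.7, 91.5 and 103 against 304, 276 and 305 (1.69 ± 0.08). Against untreated roots 8 proteasome members rose and 3 fell. Of the autophagy list 4 of 15 rose and 0 fell, and 6 and 0 against untreated roots, with the cargo receptor NBR1 at 325, 307 and 344 against 618, 556 and 587 (0.87 ± 0.07).

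Of the jasmonate list 15 of 28 rose and 0 fell (median 0.66). JOX2, which hydroxylates jasmonate, was at 57.1, 62.0 and 66.2 CPM against 292, 226 and 293 (2.09 ± 0.13), and CYP94B3, which oxidises its conjugate, at 5.75, 6.09 and 7.20 against 20.7, 26.8 and 24.1 (1.93 ± 0.16). OPR3, of jasmonate synthesis, rose by 0.71 ± 0.10. Enzymes of both synthesis and removal of the hormone were thus among the rises. Set against untreated roots, 13 members rose and 3 fell.

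Of the salicylic acid list 2 of 18 rose and 5 fell (median -0.34). ICS1, its main synthesis enzyme, was at 31.3, 37.0 and 34.8 CPM against 8.09, 13.0 and 11.3 (-1.68 ± 0.22, adjusted p = 6.53e-08). PBS3, the next enzyme, was at 35.9, 57.7 and 54.6 against 16.2, 14.9 and 19.7 (-1.66 ± 0.35). Against untreated roots ICS1 changed by -0.43 (adjusted p = 0.15) and PBS3 by 1.36 in the opposite direction, with 6 rises and 1 fall in the list.

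Among abscisic acid and drought genes 9 of 33 rose and 3 fell. CYP707A1, which inactivates abscisic acid, was at 8.63, 9.997 and 9.67 CPM against 129, 102 and 111 (3.51 ± 0.16, adjusted p = 4.09e-18). LTI30, a dehydrin, was at 77.3, 102 and 88.2 against 328, 326 and 344 (1.83 ± 0.18), while KIN2, a cold-induced gene, fell from 101, 123 and 98.1 to 67.2, 63.8 and 73.4 (-0.71 ± 0.21). KIN2 lost its call without ethanol replicate 2 and without citral replicate 2, and without ethanol replicate 2 the list had 0 falls. Without citral replicate 1 or 2 it had 1. Against untreated roots 4 members rose and 12 fell.

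Of the cytokinin list 2 of 21 rose and 14 fell (median -0.86). AHK4, a cytokinin receptor, was at 128, 142 and 152 CPM against 82.4, 81.8 and 70.2 (-0.87 ± 0.08). ARR8, a response regulator induced by the hormone, was at 115, 126 and 123 against 52.1, 50.8 and 38.9 (-1.41 ± 0.11, adjusted p = 4.12e-13). The degrading enzymes were divided, with CKX4 lower by 1.86 (log2 change -1.86 ± 0.23) and CKX6 higher by 0.94 ± 0.20. Against untreated roots 10 members fell and 4 rose. ACS5, an ethylene synthesis enzyme, held 9.71, 8.97 and 8.51 CPM in ethanol. Every citral library was at the floor of the table for it, at least 8.41-fold lower at a floor of 3 reads per library. The ethylene list had 4 of 22 rising and 4 falling, and 8 and 3 against untreated roots.

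DAO1, which oxidises auxin, was at 25.2, 20.6 and 21.9 CPM against 106, 94.2 and 99.8 (2.22 ± 0.10, adjusted p = 3.97e-21). IAA17, an auxin repressor induced by auxin, was at 156, 159 and 169.5 against 84.4, 70.8 and 66.7 (-1.15 ± 0.09), and YUC3, an auxin synthesis enzyme, at 18.3, 18.2 and 15.9 against 4.55, 8.18 and 4.93 (-1.53 ± 0.25). The removal enzyme was high and the 2 other genes low in every citral library. Of the whole auxin list 9 of 36 rose and 7 fell, and against untreated roots 4 rose and 9 fell. YUC3 showed -0.59 there (adjusted p = 0.090).

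The largest falls were in iron uptake. IRT1 (chr4:10707344-10709015), the main iron transporter of the root epidermis, was at 439.6, 313 and 579 CPM in ethanol and 1.52, 0.846 and 4.64 in citral (-7.59 ± 1.12, adjusted p = 6.14e-06). FRO2, the ferric reductase that feeds it, was at 243, 173 and 333 against 1.01, 0.846 and 5.51 (-6.78 ± 1.17). CYP82C4, an iron-responsive cytochrome P450, was at 206, 141 and 286 against 0.253, 1.69 and 0.870 (-7.44 ± 1.48). All 3 were abundant in every ethanol library and near the floor in every citral library. IRT2 (chr4:10703348-10704838), the neighbour and close relative of IRT1, held 29.5, 24.2 and 43.4 CPM in ethanol. All its citral libraries were at the floor of the table, at least 30.04-fold lower. Reads shared by the pair could be split between them. Against untreated roots the changes of IRT1, FRO2 and CYP82C4 were -7.09, -5.39 and -7.71.

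Of the iron uptake list 13 of 26 fell and 3 rose (median -0.56). FIT, the transcription factor that activates IRT1 and FRO2, was at 52.8, 50.5 and 60.9 CPM against 25.3, 29.6 and 26.7 (-0.96 ± 0.14). MYB10, which acts in the same response, was at 10.4, 10.3 and 14.2 against 2.53, 1.98 and 1.45 (-2.48 ± 0.38). The members that rose were ABCG37, an exporter of phenolics, from 493, 494 and 583 to 1167, 1062 and 1087 (1.09 ± 0.10), F6'H1, which makes the coumarin scopoletin (0.50 ± 0.13), and BTS, a ligase that restrains iron uptake (0.51 ± 0.08). Against untreated roots 6 members rose and 14 fell (median -0.82).

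Root hair genes fell almost throughout. Of the list 18 of 19 tested members fell and 0 rose (median -2.94), and against untreated roots 14 fell and 0 rose (median -2.28). Over all processing settings, which differ in the loci tested, 12 to 18 members fell at 12 h. ADF8, an actin depolymerising factor of root hairs, was at 25.9, 34.7 and 41.9 CPM against 2.53, 2.26 and 1.74 (-3.97 ± 0.36, adjusted p = 1.81e-11). EXPA18, an expansin of root hairs, was at 41.0, 36.1 and 54.8 against 1.52, 1.41 and 2.61 (-4.38 ± 0.46). COBL9 fell by 2.94 on the log2 scale (-2.94 ± 0.33).

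Among the 12 largest falls, RHS18, a gene specific to root hairs, held 20.1, 21.4 and 30.02 CPM in ethanol. Its citral libraries were all at the floor of the table, at least 22.1-fold lower. The wall enzyme XTH12 was at least 14.9-fold lower, by the same floor of 3 reads per library. MRH6, which is outside these 12, was at least 11.4-fold lower by that floor. PRP3, a proline-rich wall protein of root hairs, was at 62.5, 67.1 and 110.2 against 0.253, 3.67 and 0.870 (-5.77 ± 0.87). The extensins EXT6, EXT13 and AT4G08410 fell by 5.76, 5.58 and 6.05 on the log2 scale. These repeat-rich relatives share sequence, so their separate values are uncertain, and all 3 calls were lost when only the 6 libraries entered the fit (adjusted p = 0.0789, 0.0673 and 0.0601).

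Every called aquaporin fell. Of the 22 tested, 21 fell and 0 rose (median -1.03), and against untreated roots 16 fell and 0 rose (median -0.60). PIP2;2, a plasma membrane water channel, was at 836, 838 and 1029 CPM against 353, 305 and 306 (-1.47 ± 0.11, adjusted p = 3.73e-12). PIP2;3 was at 182, 194 and 204 against 38.9, 49.1 and 53.9 (-2.003 ± 0.10). The tonoplast channel TIP2;1 was at 209, 204 and 235 against 58.6, 45.4 and 51.6 (-2.07 ± 0.15). PIP2;2 and PIP2;3 are near-identical neighbours, and reads that match both could be split. NRT1.5, a nitrate transporter that loads the xylem, also fell, from 808, 719 and 700.2 to 287, 336 and 421 (-1.08 ± 0.20). The nitrate list had 4 of 24 rising and 4 falling, and 3 and 16 against untreated roots.

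**Figure D4:**
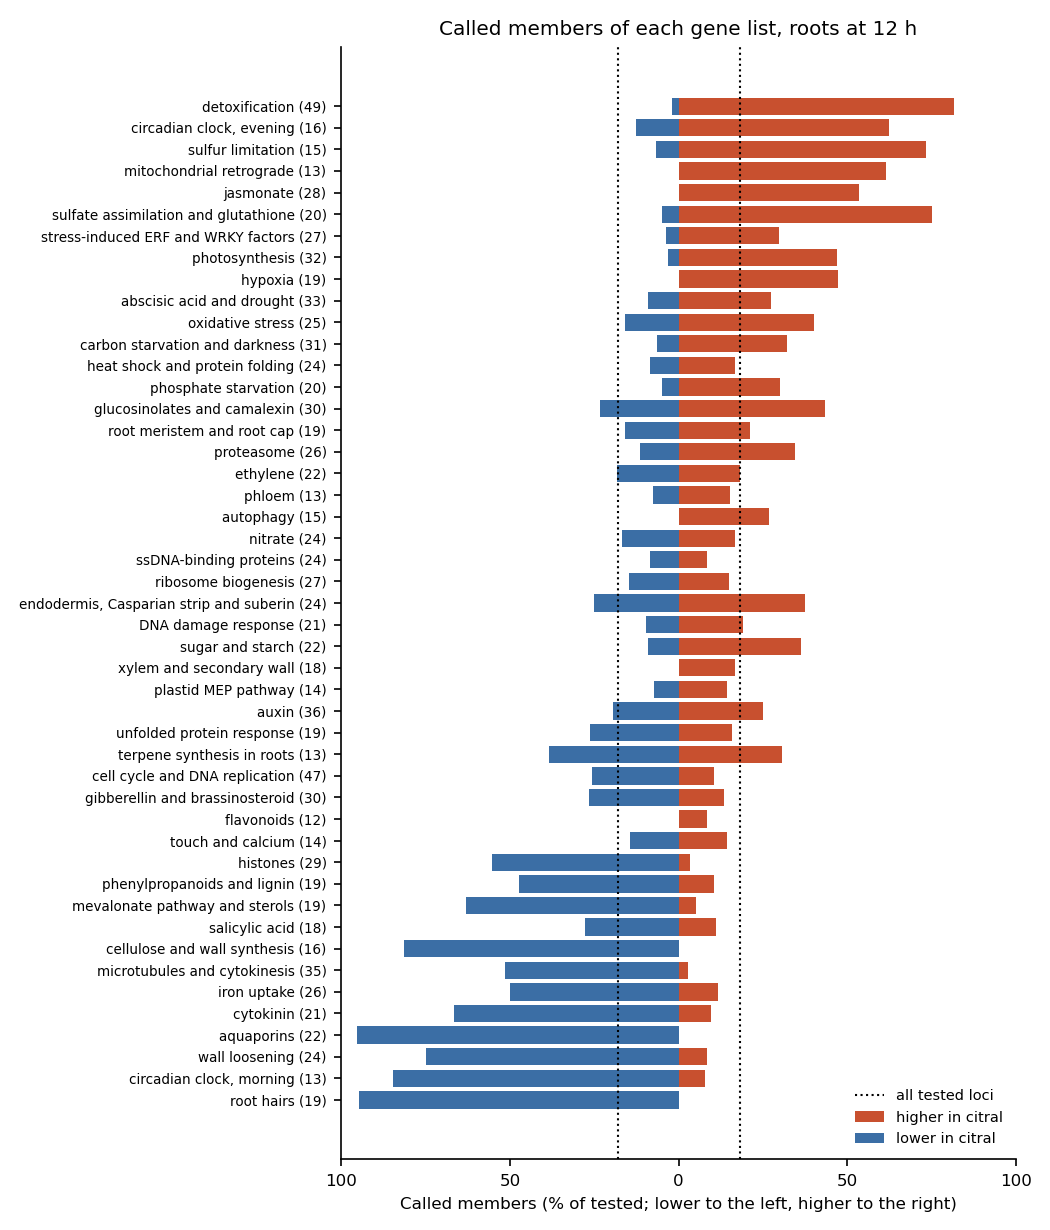
Share of the tested members of each of 47 gene lists that rose (right) or fell (left) in citral roots at 12 h, as a percent, with the number tested in brackets and dotted lines at the shares over all loci, 18.2% and 17.9%. Root hairs, aquaporins and morning clock genes lie furthest to the left and detoxification and sulfate assimilation furthest to the right.

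Of the wall loosening list 18 of 24 fell and 2 rose (median -1.04), and against untreated roots 16 and 2 did. XTH17, a xyloglucan-modifying enzyme, was at 36.7, 42.1 and 47.2 CPM against 9.10, 12.1 and 6.38 (-2.24 ± 0.22), and XTH4 at 152, 130.5 and 146 against 61.7, 57.0 and 60.3 (-1.22 ± 0.13). XTH24 went the other way, 104, 129 and 119 against 192, 178 and 235 (0.73 ± 0.16). Of the cellulose and wall synthesis list 13 of 16 fell and 0 rose (median -0.34), with POM1, a chitinase-like protein of cellulose synthesis, at 466, 413 and 473 against 324, 285 and 256 (-0.62 ± 0.08). Against untreated roots 12 of the 16 fell and 0 rose. Over all processing settings, which differ in the loci tested, 6 to 14 members of this list fell.

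Of the microtubule and cytokinesis list 18 of 35 fell and 1 rose (median -0.36). TUB1, a beta-tubulin, was at 103, 90.0 and 96.0 CPM against 34.4, 38.1 and 36.2 (-1.35 ± 0.12, adjusted p = 1.77e-11), TUB4 at 500.3, 465 and 499.8 against 296, 292 and 309 (-0.68 ± 0.06), and the alpha-tubulin TUA2 at 615, 480.3 and 507 against 313, 332 and 309 (-0.69 ± 0.06). Tubulins are close copies and could share reads. Against untreated roots 18 of the list fell and 0 rose. Of the histones 16 of 29 fell and 1 rose (median -0.28), and 10 fell without ethanol replicate 2 or without citral replicate 1. Over all processing settings 6 to 17 histones fell. HTA6, a histone H2A, was at 94.2, 80.2 and 73.1 against 45.5, 51.1 and 47.6 (-0.72 ± 0.10), while the H2B gene HTB3 rose from 15.1, 20.0 and 17.1 to 32.4, 38.1 and 40.3 (1.01 ± 0.12). Against untreated roots 13 histones fell and 3 rose, and HTB3 showed 0.19 (adjusted p = 0.24).

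Among cell cycle and replication genes 12 of 47 fell and 5 rose (median -0.12), where 40 had fallen after 6 h of citral (median -0.85), when 26.3% of all loci fell. Against untreated roots 9 fell and 4 rose. CYCD3;1, a cyclin that responds to cytokinin, was at 42.8, 43.4 and 45.8 CPM against 20.2, 23.1 and 20.9 (-1.02 ± 0.19). CYCD1;1, another D-type cyclin, was at 13.7, 14.9 and 13.8 against 38.9, 46.0 and 41.2 (1.56 ± 0.12). CDC20.1, which triggers exit from mitosis, changed by -0.64 ± 0.12 at 12 h and by -2.91 at 6 h. Without citral replicate 3 only 7 members fell, and without ethanol replicate 3, citral replicate 1 or citral replicate 2 only 2 rose. Over all processing settings 5 to 12 members fell and 1 to 5 rose.

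Of the endodermis, Casparian strip and suberin list 9 of 24 rose and 6 fell, and against untreated roots 10 rose and 4 fell. Those that rose included HORST, a fatty acid hydroxylase, from 144, 153 and 173 CPM to 447, 364 and 367 (1.31 ± 0.08, adjusted p = 4.82e-16), FAR4, a reductase that makes fatty alcohols of suberin, by 1.05 ± 0.09 and ABCG6, a suberin transporter, by 1.03 ± 0.11. Those that fell included the Casparian strip genes CASP1, by 1.09 on the log2 scale (-1.09 ± 0.18), CASP2 from 49.96, 57.1 and 75.2 to 33.4, 21.7 and 34.5 (-1.08 ± 0.18) and the peroxidase PER64 from 102, 95.04 and 127 to 54.6, 44.0 and 39.7 (-1.22 ± 0.17). With untreated roots as control these 6 genes changed in the same directions, by 1.23, 0.97, 1.15, -0.63, -0.69 and -0.76.

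Of the mevalonate and sterol genes, the cytosolic route to terpenes, 12 of 19 fell and 1 rose (median -0.31). HMGS, its entry enzyme, was at 186, 182 and 171 CPM against 119, 114 and 99.8 (-0.71 ± 0.07), and FPS1, farnesyl diphosphate synthase, fell by 0.48 on the log2 scale (-0.48 ± 0.06). Against untreated roots 10 fell and 1 rose. Among root terpene genes 4 of 13 rose and 5 fell, and against untreated roots 3 and 4 did. The thalianol synthase THAS1 was at 164, 173 and 213 against 626, 463 and 462 (1.49 ± 0.19) and the marneral synthase MRN1 at 51.4, 46.2 and 59.2 against 15.2, 9.03 and 9.57 (-2.25 ± 0.34), so these triterpene enzymes moved apart.

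Of the glucosinolate and camalexin list 13 of 30 rose and 7 fell. CYP79B2 and CYP83B1, of the indole branch, were at 282, 328 and 276 CPM against 581, 497 and 525 (0.80 ± 0.10), and at 423, 440.2 and 414 against 739.5, 632 and 666 (0.65 ± 0.08). CYP83A1, of the aliphatic branch, was at 279.6, 238 and 226 against 156, 162 and 125 (-0.73 ± 0.11), and the root myrosinase TGG5 at 132, 145 and 142 against 53.6, 53.6 and 64.7 (-1.30 ± 0.26). Against untreated roots 19 members rose and 0 fell, the 2 indole genes were higher by 1.13 and 0.80, and CYP83A1 and TGG5 showed -0.17 (adjusted p = 0.27) and -0.34 (adjusted p = 0.38).

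Photosynthesis genes, expressed at low levels in these roots, had 15 of 32 rising and 1 falling (median 0.43). PSAD1, of photosystem I, was at 15.1, 17.8 and 17.0 CPM against 31.3, 28.2 and 36.2 (0.88 ± 0.16). The count was 9 without ethanol replicate 2, 3 without citral replicate 3, 5 with thinned reads, 4 without library quality weights and 1 without precision weights. Against untreated roots 27 rose and 0 fell (median 1.20). The 10 shoot markers above are photosynthesis genes themselves and include PSAD1, so both results share values. Their sum was higher in the citral roots, and 4 of them were called higher. The part of shoot tissue in the result was not tested. The sugar transporter STP13 was at 15.1, 18.2 and 15.1 against 104, 99.3 and 109 (2.62 ± 0.11). The sugar and starch list had 8 of 22 rising and 2 falling, and 6 and 3 against untreated roots. PAP17, a phosphatase of phosphate starvation, was at 12.6, 13.9 and 10.7 against 44.0, 46.5 and 36.8 (1.73 ± 0.15). The phosphate starvation list had 6 of 20 rising and 1 falling, and 5 and 3 against untreated roots.

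Single-stranded DNA-binding proteins, the subject of the series title, had 2 of 24 members rising and 2 falling, with a median of 0.05. RPA2A, the middle subunit of replication protein A, was at 19.4, 18.6 and 18.2 CPM against 34.4, 37.8 and 45.2 (2.14-fold, SE 0.11 on the log2 scale, adjusted p = 2.08e-10), and 1.19 higher against untreated roots. Its citral libraries all stood above its ethanol libraries, where 44.4% of all loci tested showed no overlap. It overlaps REIL2, a ribosome maturation factor on the same strand, which was at 52.1, 56.4 and 47.8 against 128, 139.9 and 116 (1.26 ± 0.07), and the part of REIL2 reads in the RPA2A values was not tested. The large subunit RPA1D and the telomere protein POT1A fell by 0.57 and 0.45 on the log2 scale, and WHY2, of mitochondria, rose by 0.27. Against untreated roots 1 member rose and 3 fell, and RPA1D and WHY2 showed -0.36 (adjusted p = 0.13) and 0.05 (adjusted p = 0.79). The calls of RPA1D, POT1A and WHY2 were lost in 6, 4 and 12 of the 18 other settings.

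Among the most abundant called genes, DOX1, a dioxygenase that oxidises fatty acids, was at 2063, 2370.0 and 2524 CPM against 5151, 4203 and 4330.0 (0.95 ± 0.10), and DR4, a gene named for repression by drought, at 2693, 2442 and 2424 against 3916, 3695 and 3840.0 (0.62 ± 0.08). The call of DR4 was lost under quantile normalization (adjusted p = 0.386). GAPC1 and GAPC2, both cytosolic glyceraldehyde phosphate dehydrogenases, moved apart, at 0.40 ± 0.06 and -0.62 ± 0.07. GAPC2 was also lower against untreated roots (-1.66), where GAPC1 showed 0.03 (adjusted p = 0.74).

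The 12 h response differed from that at 6 h for 3934 loci (19.5%), by a test of the difference itself. The change was smaller in size at 12 h for 3000 of them and larger for 934, and 305 were called in opposite directions. Of the 13 morning clock members 4 rose and 1 fell at 6 h (median 0.28), where 1 rose and 11 fell at 12 h. ABF1, a transcription factor of abscisic acid responses, showed 3.63 at 12 h and 0.10 at 6 h (difference 3.53 ± 0.20, adjusted p = 9.35e-16), and was 0.34 lower against untreated roots (-0.34). DIN2, a beta-glucosidase induced by darkness and sugar lack, went from 5.24 to 1.87 (-3.37 ± 0.21). MAM3, of aliphatic glucosinolate synthesis, stood at -2.59 at 6 h and -0.12 at 12 h (2.47 ± 0.15). All 22 cell cycle members that differed, of 47 tested, were more positive at 12 h. In the detoxification list 26 of 27 that differed, of 49 tested, were less so. Over all 20147 loci 2112 were more positive and 1822 less so.

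Against 24 h the response differed for 1642 loci (8.15%), smaller in size at 12 h for 817 and larger for 825. DIN2 showed -0.47 at 24 h (difference 2.34 ± 0.19), and PELPK1, a wall protein, showed 1.51 at 12 h and 0.01 at 24 h (1.51 ± 0.14, adjusted p = 9.32e-09). Of the 24 endodermis members tested 10 were more positive at 12 h than at 24 h and 0 less so. Over all 20147 loci 883 were more positive and 759 less so.

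**Figure D5:**
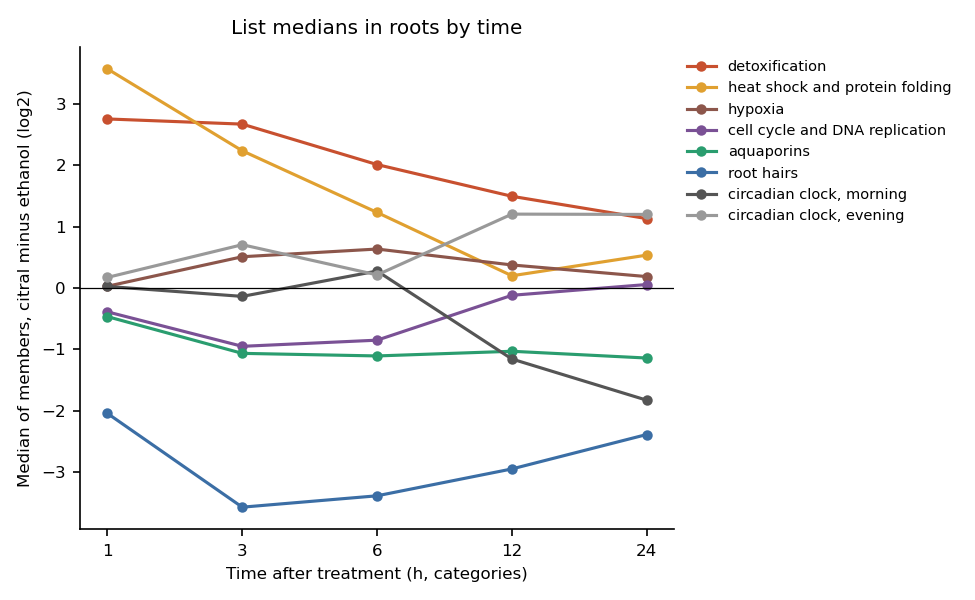
Median log2 change of 8 gene lists in roots against hours after citral (1, 3, 6, 12 and 24 h, evenly spaced). At 12 h heat shock is at 0.20 after 3.56 at 1 h, detoxification at 1.49 after 2.75, and the cell cycle list at -0.12 after -0.85 at 6 h, while root hairs stay below -2 at every time.

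Between organs the 12 h response differed for 5091 of 21092 loci (24.1%), tested in 1 model over all 72 libraries. CYP86A2, a fatty acid hydroxylase of the cuticle, rose in roots, 47.8, 39.9 and 46.9 CPM against 122, 113 and 102 (1.38), and showed -1.25 in shoots (difference 2.59 ± 0.20, adjusted p = 4.01e-15). PRH75, a nucleolar RNA helicase, showed 0.51 in roots and -1.21 in shoots (1.69 ± 0.12), and -0.23 in roots against untreated roots. In the ribosome biogenesis list 22 of 27 members were more positive in roots than in shoots and 0 less so, with medians of 0.03 and -0.89. In the salicylic acid list 12 members were less positive in roots and 0 more so, with medians of -0.34 and 0.88. Over all 21092 loci 2193 were more positive in roots and 2898 less so. AKR4C9 and DOGT1 also differed between organs, at 5.79 and 6.12 in roots and 1.37 and 2.82 in shoots. Ethanol replicate 2 of the shoots held 0.335 M reads, and 5101 loci differed without it and the other libraries under 0.5 M reads.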

How the data were processed

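RNA from roots and shoots was sequenced in 72 libraries, 3 in each of 24 groups by organ, agent and time. The authors deposited 1 table of whole numbers for 22122 loci, scaled between libraries by TMM per the file name and never below 1, so its unit was treated as a score and not as raw counts. Per the submitters' processing notes the genome build was TAIR10. Neither aligner nor counting program is named in what was used here. Every column matched 1 library. Values were divided by the step of each library (0.7095 to 1.311) and rounded to whole reads. At least 98.72% of values up to 150 lay on the grid of that step. With a step below 1, as in all 12 h root libraries, every whole number lies on the grid. The share therefore could not test the recovery of reads in those libraries. A value at the floor was set to 0.5 read, and in the 12 h root libraries it can stand for no read or for 1. Libraries held 0.146 to 20.6 M such reads.

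The tests used limma 3.58.1 in R 4.3.3 (voom with library quality weights, robust empirical Bayes, TMM factors computed here over loci of at least 10 CPM) on the 36 root libraries with 12 group means, and on all 72 for roots against shoots. This replaced a test on counts, since the deposited values are not counts, and adjusted p-values are limma's with Benjamini-Hochberg adjustment at 0.05. Loci needed at least 1 CPM and 1 read in at least 3 libraries, which left 20147 in roots and 21092 in both organs. Bounds use a floor of 3 reads per library, and intervals are exact 95% Poisson intervals that cover counting error only. The intervals count a library at the floor of the table as holding no read. Python 3.11.15 with pandas 2.3.3, numpy 2.4.6, scipy 1.17.1 and matplotlib 3.10.9 was used for the rest. Names, coordinates and promoters came from the TAIR10.1 annotation, which held 21979 of the loci. The code was tested on simulated data.

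The comparison and the 47 gene lists (1125 loci, 16 of them not in the table) were chosen with earlier results of these data known. Named genes were the 12 largest rises and falls of at least 5 CPM in the higher group with groups that did not overlap. Up to 4 called members per list and all clock and single-stranded DNA-binding members were added. So were the 5 lowest p-values in either direction of each test of a difference. The genes of these tests came from loci of at least 5 CPM in a root 12 h group. Label checks and the 5 most abundant called genes per direction completed the set. Alternatives covered weights, pseudocount, scaling, samples in the fit, filter, depth and each replicate left out.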

Additional observations from a re-analysis of the deposited data

Results flagged for a closer look

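The root response at 12 h differed from that at 6 h for 3934 loci by limma's test of the difference. Among loci of at least 5 CPM in a root 12 h group, these had the smallest adjusted p-values in each direction (7.77e-13 and below). All are given as the 12 h change minus the 6 h change on the log2 scale. More positive at 12 h were ABF1 by 3.53, MAM3 by 2.47, PDC2 by 2.43, the RNA-binding protein gene GRP7 by 2.09 and AT3G29320 by 1.88. More negative were DIN2 (-3.37), scpl31 (-3.12), PIP2;3 (-1.91), BZIP9 (-1.88) and AT5G20000 (-1.415). GRP7 went from -0.30 to 1.79 and scpl31 from 1.76 to -1.36, while PDC2 was higher at both times, at 1.35 and 3.78. From 6 to 12 h the mean level of GRP7 went from 1434 to 271 CPM in ethanol and from 1159 to 930 in citral. That of PDC2 went from 76.3 to 10.6 in ethanol and from 208 to 141 in citral, so for both genes the ethanol level moved more. The morning clock list had a median change of 0.28 at 6 h and -1.16 at 12 h.

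Between 12 h and 24 h the response differed for 1642 loci. DIN2 (2.34), AT2G43570 (2.13), AT5G38900 (2.098), PELPK1 (1.505) and AT5G22140 (1.16) were more positive at 12 h. NSP1 (-1.399), JAL33 (-1.24), AT5G60390 (-0.89), NAI2 (-0.88) and AT1G07930 (-0.78) were more negative. AT2G43570 stood at 0.71 at 12 h and -1.43 at 24 h.

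Between roots and shoots the 12 h response differed for 5091 loci. The changes were more positive in roots for EXLB1 (3.399), CYP86A2 (2.59), AT2G16365 (2.34), AT2G44230 (2.26) and PRH75 (1.69). They were more negative in roots for BGLU25 (-3.35), AT1G33970 (-2.44), MUM2 (-2.22), AT1G13990 (-2.085) and AMY3 (-1.796). BGLU25, a beta-glucosidase, showed 0.16 in roots and 3.47 in shoots.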

How the results depend on the processing

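The 318 named genes were refitted under 18 other settings: 216 of the 287 called kept their call and direction in all of them, 21 were uncalled in all, and AT4G11320 turned from 0.27 to -0.259 under quantile normalization (adjusted p = 0.0127); the cause was not tested. Rises and falls at 12 h numbered 1758 and 2133 with a pseudocount of 0.5 CPM and no precision weights, 1730 and 2097 with 0.1, and 2237 rises with thinned reads. Loci that differed from 6 h numbered 2571 without library quality weights, 1365 and 1331 with those pseudocounts and 2026 with thinned reads. For 24 h these settings gave 794, 556, 511 and 568, and for roots against shoots 1629, 3304, 2811 and 2166. Leaving out 1 replicate gave 2584 to 3509 rises, 2806 to 3465 falls, 3015 to 4024 loci against 6 h, 1137 to 1554 against 24 h and 3721 to 5232 between organs. The clock distance between citral and ethanol was 1.066 over the 14 clock genes of at least 5 CPM, against 1.74. List medians were also taken with members at the floor in every library of a group set to their bound. They were 1.48 for detoxification, 0.10 for heat shock, 0.17 for oxidative stress and 0.65 for jasmonate. For salicylic acid, cytokinin and iron uptake they were -0.27, -0.82 and -0.47. No paired analysis was possible because the labels give no replicate numbers that link the groups.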
